A study of Mus musculus with 3 samples.

Results

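First introns are the introns that directly follow the first exon of a transcript. They were examined here as targets of Tra2β in the testes of adult wild type mice. Tra2β, a relative of the SR proteins, regulates splicing. Its RNA contacts had been mapped by iCLIP, in which ultraviolet light joins a protein to the RNA it touches and the end of each cDNA marks the nucleotide next to the joined base. A first intron was taken from the canonical transcript of a protein-coding gene (GENCODE vM39) when that transcript had at least 4 introns and the intron was shorter than 100 kb, and every base that is exonic in any transcript on the same strand was removed (masked). Of 21770 protein-coding genes, 14385 had such a transcript, and 14064 of their first introns were under 100 kb while 321 were longer. These 14064 were compared with the 156384 other introns under 100 kb of the same transcripts, called later introns, out of 176234 introns screened in all. Masking left 12855 first introns with at least 1 base and removed all of the other 1209.

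The series held 1 group of 3 libraries from biological triplicates, made from minced testes with a polyclonal antibody against Tra2β, so they are of mixed cell types and carry no treatment or engineered allele. The sources used here give no more exact age than adult. The libraries held 348033, 619571 and 488719 crosslinks for replicates 1, 2 and 3, where a crosslink is 1 unique cDNA at 1 nucleotide. All 28 markers of spermatogonia, spermatocytes and spermatids had crosslinks in every library, as had 6 of 9 Sertoli and 5 of 7 Leydig cell markers, while Amh and Inhba were at 0. The 8 markers of other organs summed to 25.9, 62.9 and 6.14 CPM, which are crosslinks scaled by library size. Most came from Ins2 of the pancreas, with 7, 28 and 3 crosslinks, and from Ckm of muscle, with 2, 7 and 0. The 4 at 0 included the liver and lung markers Alb, Apoa1 and Sftpc. Spermatogonia markers summed to 109, 107 and 65.5 CPM. In such tissue fewer cells of a type and less RNA per cell cannot be told apart, and more transcript cannot be told apart from more binding except by comparing regions of the same transcript. No input or mock library was used here, and crosslinks on the opposite strand were the only background.

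Introns are removed by the spliceosome while the RNA is still being made, and their sequence is seen by crosslinking only during that time. The first intron is usually the longest of a gene. It lies next to the promoter, and often holds further promoters, enhancers and alternative exons. Tra2β binds exons with GAA and AGAA repeats and raises their inclusion. Among these exons are poison exons, which bring a stop codon and send the mRNA to nonsense-mediated decay (NMD).

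The sequences that follow show where crosslinks lay closest together. Each is a stretch of 29 nt on the transcript strand (genome build mm39), written 5′ to 3′, with GAA in capitals. The first set holds the window with the most crosslinks in those first introns, among the 12 with the highest density relative to later introns and Tra2b, in which such a window had at least 5 crosslinks.
Akap8, chr17:32538872-32538900, minus strand: ttgtttttttaactaaGAAtttttttagc
Catsperg1, chr7:28913125-28913153, minus strand: tttgggcgcggctaGAAgaggcggggcat
Gm38392, chr3:88184791-88184819, minus strand: cataccataaactaatgctagccccacac
Tra2a, chr6:49234263-49234291, minus strand: ctgtatctttatagatttatgtgaGAAga
Tra2b, chr16:22080518-22080546, minus strand: tgtcttgtttgtacagccttttttttttt
Ttc28, chr5:111039422-111039450, plus strand: aacaattatatccacaGAAccctcaaaaa

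These windows held between 5 and 9 crosslinks each, and 4 of 6 held 1 GAA while the other 2 held none. Purines made up 20.7% of the Tra2b window, 34.5% of the Akap8 window and 65.5% of the Catsperg1 window. The Tra2a window had 2 crosslinks in every library, and the Akap8 and Tra2b windows had crosslinks in every library too. The windows of Catsperg1, Gm38392 and Ttc28 had crosslinks in replicate 2 only. In Tra2a and Tra2b, annotated exons of NMD transcripts lie within the first intron and were masked. For contrast, 1 such exon of each gene was taken, the one found in the most NMD transcripts (2 of Tra2a and 13 of Tra2b), and its densest 29 nt held 3, 24 and 5 crosslinks in Tra2a and 3, 2 and 8 in Tra2b.
Tra2a exon, chr6:49230001-49230029, minus strand: aaGAAattGAAgagttttttccaaGAAtg
Tra2b exon, chr16:22077760-22077788, minus strand: taaaaatGAAgttaagataaGAAgtaatc

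These exon windows held 3 and 2 copies of GAA, and 62.1% and 72.4% purines. The intronic windows held fewer crosslinks and at most 1 GAA each.

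Across all transcripts the density of crosslinks in first introns was close to that in later introns. First introns held 20184, 30828 and 22500 crosslinks in replicates 1, 2 and 3 over 127.088 Mb, and later introns held 69053, 121019 and 82611 over 448.166 Mb. This gave 0.159, 0.243 and 0.177 crosslinks per kb in first introns. Later introns had 0.154, 0.270 and 0.184 per kb. The ratio of first over later introns was 1.03, 0.898 and 0.960, a mean of 0.963 ± 0.0663 (SD, n = 3), so that the libraries lay on both sides of 1. First introns made up 22.1% of the bases of both classes and received 22.6% of their crosslinks in replicate 1, with an exact (Clopper-Pearson) 95% interval from 22.3 to 22.9%. The share was 20.3% in replicate 2 with an interval from 20.1 to 20.5%, and 21.4% in replicate 3 with one from 21.2 to 21.7%. These intervals cover counting error only. The spread between libraries was wider than the intervals, and with 3 libraries a sign-flip test cannot give a two-sided p under 0.25, so no test was made of this ratio.

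Most first introns had few crosslinks. Of the 14064, 6738 had at least 1 crosslink and 2919 had 1 in all 3 libraries, and the highest sum was 431, in Strbp. The median first intron was 3241 nt long, against 1194.5 nt for later introns, and the median fell from 1817 nt for the second to 1246 nt for the sixth. The ratio of sums gives most weight to long introns of heavily crosslinked transcripts. In the 5220 transcripts with at least 10 crosslinks over all introns and libraries and at least 100 unmasked bases in each class, the median ratio was lower, at 0.735, 0.703 and 0.711 per library, where 28.6 to 34.0% of these transcripts had no crosslink in the first intron in a given library. After the libraries were summed the median was 0.869.

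To compare introns within the same transcript, each transcript was made a stratum and the ratio was weighted over transcripts (Mantel-Haenszel ratio). Transcripts with more crosslinks still weigh more in it. Without the 50 most crosslinked introns of each class its mean for first over later introns was 1.00 ± 0.0637. By this within-transcript ratio first introns stood at 1.10, 0.970 and 1.02 relative to later introns (mean 1.03 ± 0.0631, n = 3, 12823 transcripts). The second intron stood lower, at 0.925, 0.973 and 0.937 relative to the other introns of its transcript, and the third lower still at 0.923, 0.898 and 0.922. From there the ratio rose with intron number, to 0.952 ± 0.0079 for intron 4, 0.977 ± 0.0129 for intron 5, 1.04 ± 0.0171 for intron 6 and 1.06 ± 0.0359 for introns 7 on. The first intron was above introns 2, 3 and 4 by the means. In replicate 2 its value of 0.970 did not exceed the 0.973 of intron 2. The last intron stood at 1.01 ± 0.0584.

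The ratio varied with the length of the first intron. First introns under 1 kb stood at 0.864, 1.18 and 0.895 relative to later introns, with replicate 2 apart from the others. Those of 1 to 2 kb stood at 1.15 ± 0.166, those of 2 to 5 kb at 1.20 ± 0.136 and those of 5 to 10 kb at 1.19 ± 0.0876, with all 3 libraries above 1 in the last 2 classes. From 10 kb up the mean was near 1, at 1.03 ± 0.0735 for 10 to 20 kb, 0.926 ± 0.0591 for 20 to 50 kb and 0.981 ± 0.0643 for 50 to 100 kb. The choice of reference mattered here. Against later introns of 0.5 to 2 times their length, first introns of 2 to 5 kb kept a ratio of 1.25, 1.06 and 1.26, those of 5 to 10 kb had 1.13, 0.967 and 1.09, and those of 10 to 20 kb fell below 1 in each library with 0.863, 0.734 and 0.858. First introns in which another transcript of the gene starts stood at 1.11, 1.00 and 1.04, against 1.08, 0.948 and 1.01 for the rest, a small gap of the same sign in each library that was given no test.

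**Figure D1:**
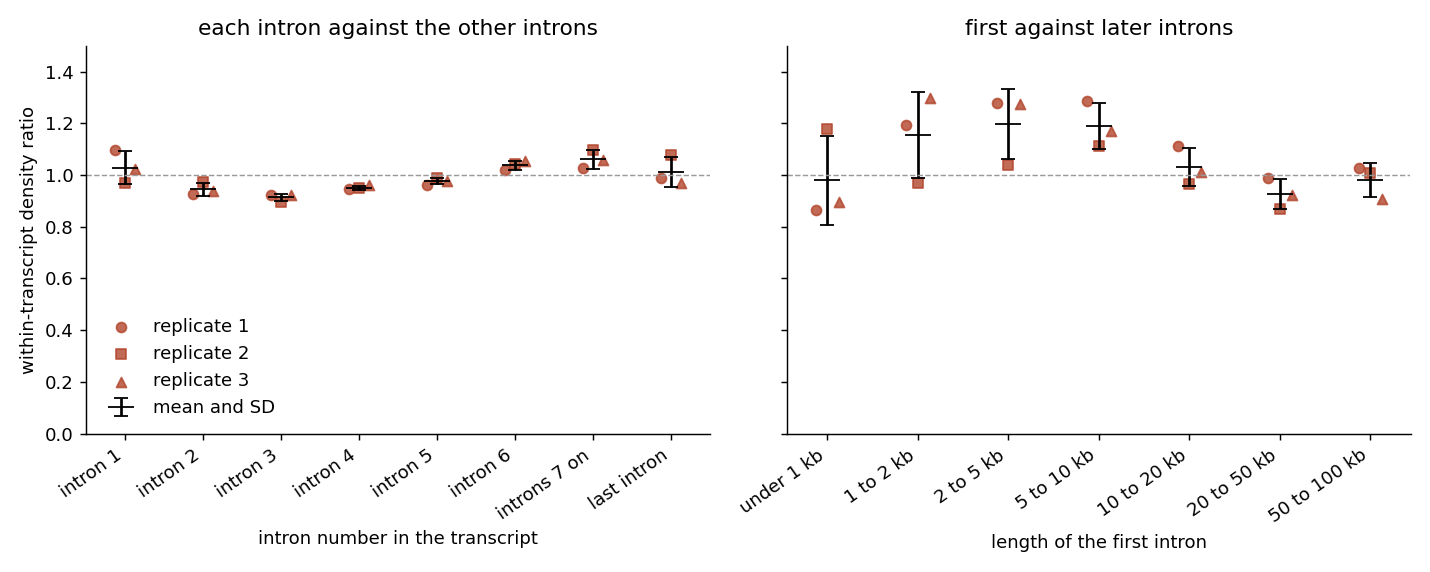
Within-transcript ratio of crosslink density for each intron number against the other introns of its transcript (left) and for first against later introns by length of the first intron (right). Points are the 3 libraries and bars the mean and SD. Introns 2 to 5 lie below 1 in every library, and first introns of 2 to 10 kb lie above 1 in every library when all later introns are the reference.

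Density changed along the first intron. For each distance from the end of the first exon, crosslinks were divided by the number expected if the bin had the density of the later introns of the same transcript. This relative density was 1.02, 1.18 and 0.883 in the first 100 nt. It rose to 1.35, 1.31 and 1.30 at 200 to 500 nt (mean 1.32 ± 0.0287). At 500 to 1000 nt it was 1.46, 1.15 and 1.44, which was higher again in replicates 1 and 3 and lower in replicate 2. It then fell from bin to bin in every library, to 1.29 ± 0.163 at 1 to 2 kb, 1.20 ± 0.105 at 2 to 5 kb, 1.11 ± 0.0772 at 5 to 10 kb and 0.970 ± 0.0605 at 10 to 20 kb. Far from the first exon it was 0.889, 0.910 and 0.794 at 20 to 50 kb and 0.708, 0.810 and 0.683 at 50 to 100 kb, below 1 in all libraries.

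Later introns had another profile over the same distances from the exon before them. They rose from 0.820 ± 0.111 in the first 100 nt to 0.974 ± 0.0399 at 500 to 1000 nt and 1.08 ± 0.0374 at 2 to 5 kb, and fell to 0.953 ± 0.0122 at 20 to 50 kb and 0.813 ± 0.0710 at 50 to 100 kb. The number expected for later introns came from those same introns, so they set their own reference and first introns did not. Between 200 nt and 5 kb, the relative density of first introns lay above that of later introns in each library at every distance except at 2 to 5 kb in replicate 2, which had 1.10 against 1.12. At 20 to 50 kb it lay below that of later introns in each library, by the most in replicate 3 with 0.794 against 0.948. In crosslinks per kb the classes were close at 20 to 50 kb. First introns had 0.111, 0.202 and 0.120 there and later introns 0.107, 0.213 and 0.122, so replicate 1 was not lower. The difference between the profiles was given no test.

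The bins nearest to the exon hold introns of all lengths and the far bins only long ones. Among introns of at least 20 kb, which reach every bin up to 20 kb, the fall was kept. First introns of this length stood at 1.60, 1.26 and 1.56 at 500 to 1000 nt, and at 0.889, 0.910 and 0.794 at 20 to 50 kb. Later introns of this length went from 1.22, 1.05 and 1.10 to 0.945, 0.967 and 0.948. When distance was counted from the start of the transcript, density in first introns also fell, from 0.230, 0.299 and 0.267 crosslinks per kb at 1 to 2 kb to 0.112, 0.203 and 0.121 at 20 to 50 kb. Later introns at the same distances from the transcript start had 0.177, 0.229 and 0.195 per kb and then 0.177, 0.297 and 0.216. They were thus no lower in any library at 20 to 50 kb, but in replicate 1 they dipped to 0.156 at 2 to 5 kb. At 50 to 100 kb they had 0.158, 0.279 and 0.183 per kb, below the values at 1 to 2 kb in replicates 1 and 3, while first introns had 0.0813, 0.171 and 0.0919.

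**Figure D2:**
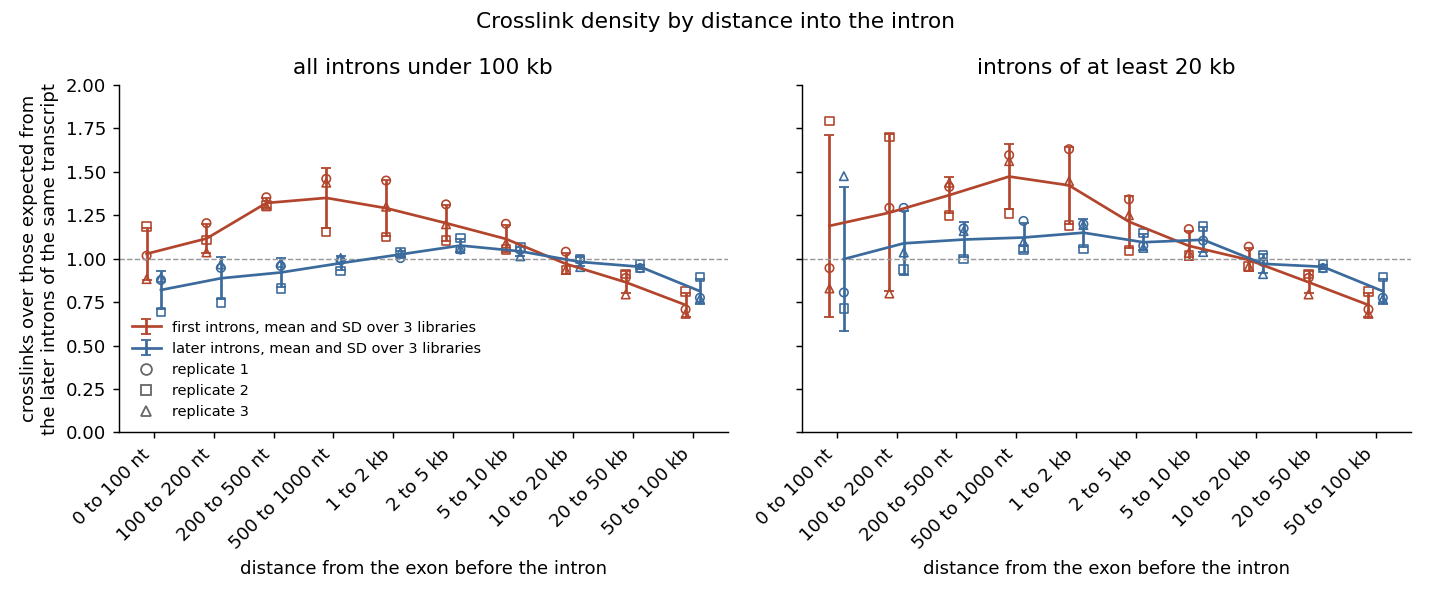
Crosslinks over those expected from the later introns of the same transcript, by distance from the exon before the intron, for all introns under 100 kb (left) and for introns of at least 20 kb (right). Lines and bars are the mean and SD of 3 libraries and symbols the libraries. First introns reach 1.35 at 500 to 1000 nt and fall to 0.734 at 50 to 100 kb in the left plot. Later introns, which set their own reference, stay between 0.813 and 1.08 there.

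AGAA frequency and antisense background also moved with distance, and their part in the profile was not tested. AGAA rose in first introns from 3.83 copies per kb in the first 100 nt to 6.65 at 500 to 1000 nt, and then stayed between 6.70 and 6.92 out to 100 kb, while relative density fell. Antisense crosslinks, counted where no gene lies on the other strand, fell from 0.0549 ± 0.0473 per kb in the first 100 nt to 0.0347 ± 0.0236 at 500 to 1000 nt and 0.0226 ± 0.0212 at 20 to 50 kb. Over whole introns, antisense density was 0.0117, 0.0475 and 0.0138 per kb for first introns and 0.0155, 0.0516 and 0.0172 for later introns. Sense over antisense was 13.6, 5.11 and 12.9 in first and 9.97, 5.23 and 10.7 in later introns, so sense stood out least from antisense in replicate 2 in both classes.

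Crosslinks were also summed on either side of a boundary 2 kb into the intron. In the 6388 first introns of at least 4 kb, density in the first 2 kb over that in the rest was 1.59, 1.33 and 1.60 (mean 1.51 ± 0.153). In later introns of that length it was 1.33, 1.17 and 1.36 (mean 1.29 ± 0.0996), lower in each library. A boundary at 1 kb gave 1.46 against 1.22, and at 5 kb, in introns of at least 10 kb, 1.47 against 1.30. These are ratios of sums over introns, in which long introns weigh most in the rest, so they are not measures within single introns. Per transcript the gap was smaller, with a median log2 ratio of 0.22 over 1748 first introns, and few differences passed a test. With edgeR, 8 of 1748 first introns (0.458%) were higher in the first 2 kb at an adjusted p under 0.05 and 1 (0.0572%) was lower, while 118 had an unadjusted p under 0.05.

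The genes in this and the next paragraph were chosen after their values were seen. Osbpl9, an oxysterol-binding protein, had 4, 4 and 4 crosslinks in the first 2 kb and 3, 9 and 8 in the other 27715 unmasked bases, a log2 ratio of 3.04 (edgeR adjusted p = 0.00676). Morc2a, a chromatin ATPase, had 8, 9 and 9 against 4, 5 and 5 over 6014 bases (log2 ratio 2.44, adjusted p = 0.00676). In Gxylt1 17 of the 21 crosslinks of the first 2 kb came from replicate 3. The 1 lower first intron was that of Taf12, a subunit of the general transcription factor TFIID, with 2, 1 and 2 crosslinks in the first 2 kb and 29, 8 and 85 beyond (log2 ratio -2.87, edgeR adjusted p = 0.00676). Without replicate 1, 5 higher calls were made. Without replicate 2 or without replicate 3 edgeR called none, while 42 transcripts in each case had an unadjusted p under 0.05.

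Against the second intron alone, the pooled ratio of first introns was 1.21, 1.04 and 1.14, and the within-transcript ratio was 1.14, 0.991 and 1.07. Of 2661 transcripts tested with edgeR, 83 (3.12%) were higher in the first intron than in the second and 63 (2.37%) were lower. Garin2, a Golgi protein of germ cells, had 42, 79 and 52 crosslinks in the first intron and 5, 2 and 6 in the longer second (log2 ratio 4.31, edgeR adjusted p = 7.10e-25). Cdk8, the kinase of the Mediator complex, showed the reverse with 4, 6 and 0 crosslinks in the first intron and 81, 373 and 125 in the second (log2 ratio -7.42, adjusted p = 3.88e-83). The same contrast was made 1 intron further on. The second intron was higher than introns 3 on in 83 of 4375 transcripts (1.90%) and lower in 110 (2.51%), and its within-transcript ratio was 0.941 ± 0.0143. Without replicate 2 edgeR made no call in either contrast, with 180 and 252 transcripts at an unadjusted p under 0.05. Without replicate 1 or replicate 3 there were at most 8 calls in a direction for first against second intron and 43 for second against later.

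The test of each transcript compared its first intron with its later introns, with library as a block and unmasked length as an offset. Of 5220 transcripts, 283 (5.42%) were higher in the first intron at an edgeR adjusted p under 0.05 and 260 (4.98%) were lower. All 3 libraries were above equal density in 275 of the higher and below it in 258 of the lower calls, while 50 lower calls had no crosslink in the first intron. Of 261 higher transcripts also tested against the second intron alone, 70 were higher than that as well. The median log2 ratio over all 5220 was -0.20. With TMM factors on densities in place of library totals it was -0.45, and 193 were higher and 387 lower. That fit moved the median further from 0, so it did not set transcripts against the typical ratio.

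Calls split by length. Higher calls outnumbered lower ones among shorter first introns, with 51 against 26 of 985 at 2 to 5 kb and 68 against 36 of 926 at 5 to 10 kb. At 20 to 50 kb the balance turned, with 47 higher and 90 lower calls of 1039, and at 50 to 100 kb there were 26 and 47 of 396. Under 1 kb only 6 and 2 of 491 were called, and 311 of these 491 had no crosslink, so short first introns could hardly be called lower at this depth. The limit reached further than this class. Where fewer than 5 crosslinks were expected in the first intron, 49 of 2275 were higher and 3 lower. With at least 5 expected, 234 of 2945 were higher and 257 lower. The part of this limit in the split by length was not tested.

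These counts depend on how the spread between libraries is estimated. With 3 libraries the main edgeR fit estimated no spread that differed between transcripts and used 1 value for all. The robust option of edgeR gave 275 higher and 257 lower calls. DESeq2 called 107 higher and 71 lower, and an exact binomial test that had to pass in each library called 37 and 19, and all of these were also edgeR calls. Without replicate 2 there were 37 and 13 calls, without replicate 3 there were 36 and 24, and without replicate 1 edgeR called none, although 517 of 4596 had an unadjusted p under 0.05 and DESeq2 called 21 higher and 7 lower. Against later introns of similar length, 153 of 2466 were higher and 183 lower, and 134 and 113 of them were called in the full comparison too. A same-strand gene overlapped 1948 of the tested transcripts, and without those 176 and 130 were called.

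**Figure D3:**
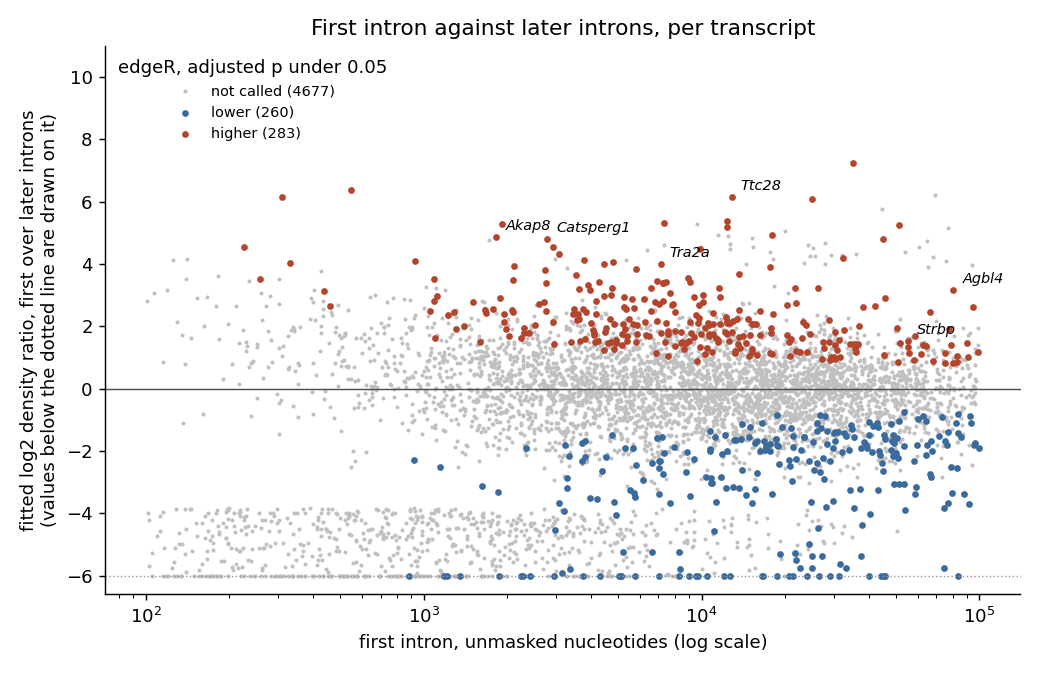
Fitted log2 ratio of crosslink density in the first intron over later introns for 5220 transcripts, against the unmasked length of the first intron. Red and blue points passed an edgeR adjusted p of 0.05 as higher (283) or lower (260). First introns with no crosslink form the lower bands, and their fitted value has no meaning beyond the sign.

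Among the 12 first introns with the highest ratio, 6 were free of overlapping genes and were called by edgeR, DESeq2 and the binomial test, and by edgeR with replicate 2 or replicate 3 left out. They were Ttc28, Catsperg1, Akap8, Sh3yl1, Carf and Tra2a. Ttc28, a tetratricopeptide repeat protein, had the lowest p. Its first intron (chr5:111027855-111040697, plus strand, 12843 nt) had 28, 59 and 20 crosslinks, while the other 20 introns had 6, 14 and 2 over 190020 bases. That is 8.33 against 0.116 per kb, a log2 ratio of 6.16 (edgeR adjusted p = 2.57e-60), and every library showed it. Crosslinks lay along the whole intron with a median at 10120 nt, and most of those of replicate 2 lay beyond 11 kb.

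Catsperg1, an auxiliary subunit of the CatSper calcium channel of sperm, had 24, 82 and 48 crosslinks in a first intron of 2990 nt (chr7:28910351-28913340, minus strand) and 12, 19 and 12 in 22889 bases of later introns. The log2 ratio was 4.81 (edgeR adjusted p = 5.18e-53), with 55.4 against 1.88 per kb over the libraries. Akap8, a nuclear anchoring protein for protein kinase A, had 10, 6 and 21 against 1, 0 and 3 in later introns (log2 ratio 4.86, edgeR adjusted p = 6.24e-11). Its first intron spans chr17:32537784-32540058 on the minus strand. In both genes another transcript starts within the first intron.

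Sh3yl1, which binds phosphoinositides, had 15, 47 and 17 crosslinks in the first intron (chr12:30962227-30972233, plus strand) and 4, 6 and 2 in 35933 bases of later introns (log2 ratio 4.49, edgeR adjusted p = 1.46e-21). In replicate 2 most of them lay between 3 and 7 kb. Carf, a calcium-responsive transcription factor, had 9, 8 and 7 against 2, 7 and 4 over 36951 bases (log2 ratio 4.13, adjusted p = 2.50e-09), and 75% of those in its first intron (chr1:60137467-60144469, plus strand) lay within 2 kb of the first exon. Masking had removed 3235 of its 7003 nt, which held 4, 4 and 7 crosslinks. 4930522H14Rik had 3, 12 and 12 against 2, 3 and 4 (log2 ratio 4.31, edgeR adjusted p = 1.30e-09), and was not called by the binomial test. The densest 29 nt gave little of these ratios. Its removal cost the most in Akap8, where the log2 ratio of summed counts went from 4.87 to 4.55.

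**Figure D4:**
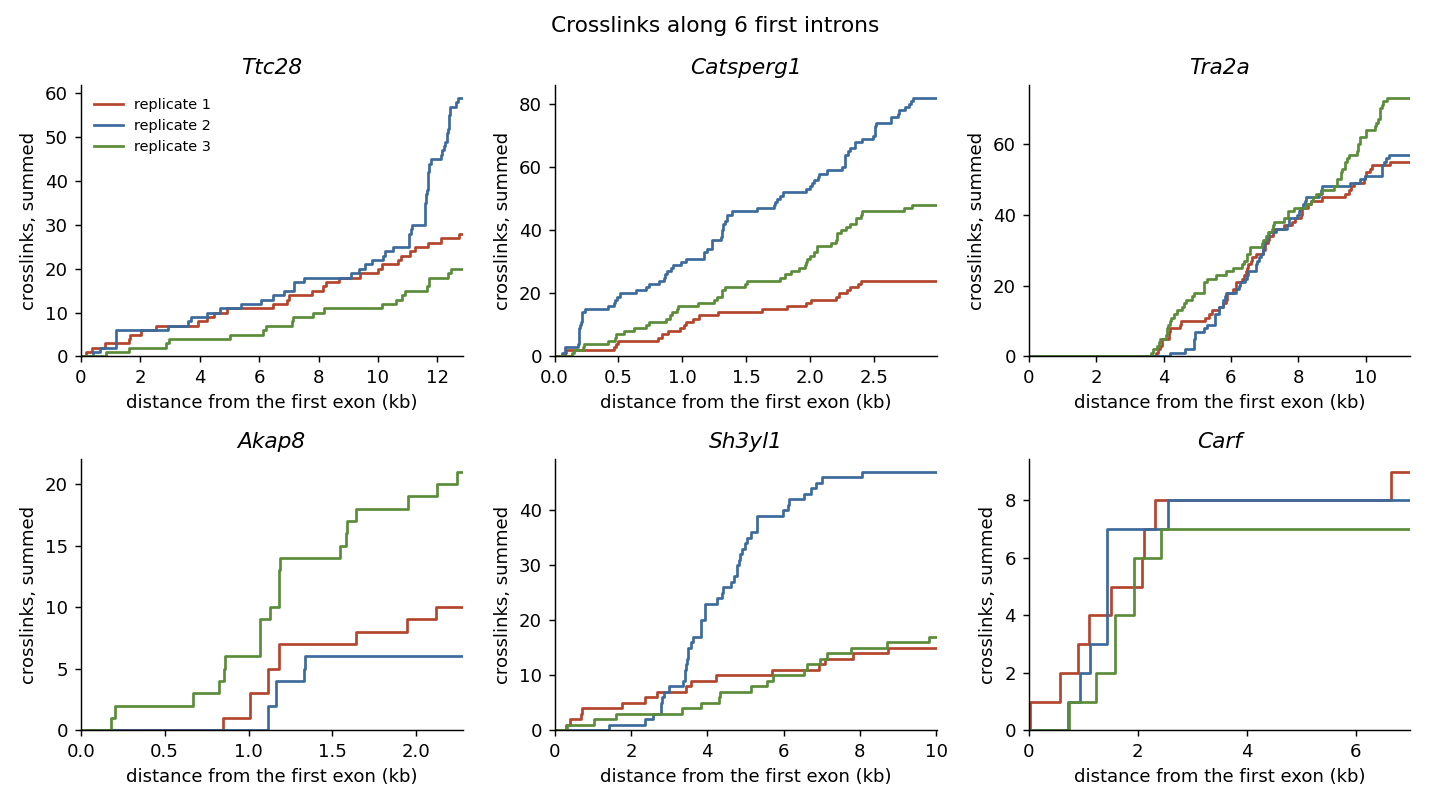
Running sum of crosslinks along 6 first introns, from the end of the first exon (left of each plot) to the next exon, in each library. Crosslinks accrue over the whole intron in Catsperg1 and Ttc28, start near 4 kb in Tra2a, where the part next to the first exon is masked, and nearly all lie in the first 3 kb in Carf, where 3235 of 7003 nt are masked.

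The other 5 of the 12 rest on less. Gm38392 had 16, 56 and 29 crosslinks in the first intron and none in 3894 later bases, which is at least 3.73-fold higher against a floor of 3 crosslinks, and Gm37116, Rhbg and Tsacc overlap it on the same strand. Slc25a25, a mitochondrial carrier, had 15, 15 and 14 against none in 3859 bases, at least 2.27-fold. Dhrsx had 4, 15 and 5 and Agrp 7, 7 and 7, again with none in later introns, at least 2.22-fold and 2.28-fold. Agrp, which encodes a feeding peptide of the hypothalamus, is overlapped by Gm45855 and Gm5914. Slc25a25, Dhrsx and Agrp were not called by DESeq2. Timp2, an inhibitor of metalloproteinases, had 12, 15 and 19 against 0, 1 and 0, and Cep295nl lies within its first intron on the same strand. The masked exonic bases there held 97, 14 and 197 crosslinks.

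Tra2a and Tra2b, the paralogues that encode Tra2α and Tra2β, were both higher in the first intron with poison exons left out. The first intron of Tra2a (chr6:49229450-49240771, minus strand) had 55, 57 and 73 crosslinks in 7134 unmasked bases, and the later introns had 3, 2 and 4 in 5744, a log2 ratio of 4.0 (edgeR adjusted p = 2.90e-21). That of Tra2b (chr16:22073868-22084490, minus strand) had 33, 24 and 33 in 8629 bases against 2, 8 and 4 in 3261 (log2 ratio 1.27, edgeR adjusted p = 0.0427). The libraries were level in Tra2a, whereas in Tra2b the log2 ratio was 2.34, 0.12 and 1.49, so replicate 2 was near equal density, and the call was not made by DESeq2 or with any library left out.

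In both genes the masked exon found in the most NMD transcripts held denser signal than the unmasked intron around it. The other masked bases were not compared on their own. The 312 nt exon of Tra2a NMD transcripts (chr6:49229731-49230042) had 14, 51 and 20 crosslinks, or 272.4 per kb summed over libraries, against 25.9 per kb in the unmasked first intron. The 276 nt exon of Tra2b (chr16:22077736-22078011) had 11, 10 and 17, or 137.7 per kb against 10.4. The intron thus stood between the exon and the later introns, which had 1.57 per kb in Tra2a and 4.29 in Tra2b.

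Over all genes, 1975 first introns held an exon of an NMD transcript of the same gene wholly within them. With all exonic bases masked, these first introns stood at 1.31, 1.10 and 1.23 relative to later introns (mean 1.21 ± 0.106), and those with no such exon at 1.04, 0.936 and 0.965 (mean 0.980 ± 0.0532). The former are longer, with a median of 7308 nt against 2784. At 2 to 20 kb, where the medians were 6446.5 and 5599 nt, the gap was wider, at 1.63, 1.41 and 1.56 against 1.11, 0.947 and 1.02. The gap was larger than the spread between libraries in both cases, and with 3 libraries it was given no test. Later introns with such an exon stood at 1.37, 1.35 and 1.35 relative to later introns without one in the same transcript (4795 transcripts). Against that same reference, first introns with such an exon stood at 1.38, 1.13 and 1.31 (1807 transcripts), so the higher density was not particular to first introns. Without the 50 most crosslinked first introns, those with an exon had a mean of 1.15 ± 0.100 relative to all later introns. Those with none had 0.943 ± 0.0582.

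**Figure D5:**
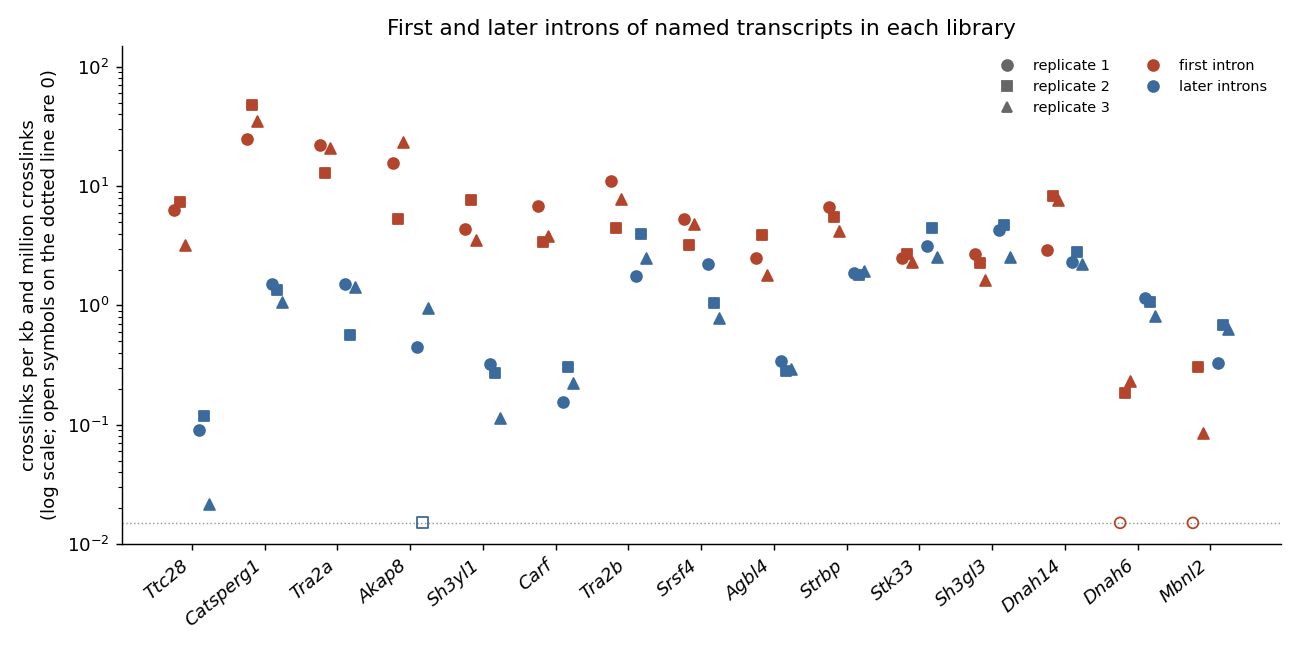
Density as CPM per kb in the first intron (red) and the later introns (blue) of 15 transcripts, in each library, on a log scale. Open symbols stand for 0. The first 10 and Dnah14 are higher in the first intron in every library, Stk33, Sh3gl3, Dnah6 and Mbnl2 are lower in every library, and in Stk33 and Sh3gl3 the ranges of the classes over libraries overlap.

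Genes were grouped by function, and no list was tested as a group. Of 15 tested genes of SR proteins, which promote exon inclusion, 3 (20%) were higher and none lower, where 5.42% and 4.98% of all transcripts were, with a median log2 ratio of 0.31 against -0.20 over all transcripts. Besides Tra2a and Tra2b this was Srsf4, with 14, 15 and 18 crosslinks in the first intron against 6, 5 and 3 in later introns of about the same total length (log2 ratio 1.75, edgeR adjusted p = 0.0101). Srsf4 was not called by DESeq2, and A930004J17Rik overlaps it. Tra2a alone gave 185 of the 461 first-intron crosslinks of the list.

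Of 28 hnRNP and other splicing regulators tested, 1 was higher (3.57%) and 2 were lower (7.14%), which is near the 5.42% and 4.98% of all transcripts. Rbm25, a regulator of alternative splicing that Gm56548 overlaps, had 13, 15 and 8 in 4121 bases of first intron against 30, 25 and 29 in 27664 (log2 ratio 1.51, edgeR adjusted p = 0.00212). Mbnl2, a muscleblind splicing regulator, had 0, 9 and 2 against 8, 30 and 22 (log2 ratio -1.96, adjusted p = 0.00645). Ybx3, a Y-box protein that binds mRNA in germ cells, had 1, 3 and 1 against 33, 27 and 56 (log2 ratio -2.16, edgeR adjusted p = 0.00683). DESeq2 called none of these 3.

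Among genes of meiosis and the germ line, calls went both ways. Of 25 tested genes of the synaptonemal complex and meiotic recombination, 2 were higher (8.0%) and none lower, which is also near the 5.42% and 4.98% of all transcripts. Sycp3, an axial element protein of meiotic chromosomes, had 4, 11 and 4 against 3, 5 and 3 in 9557 bases (log2 ratio 2.50, edgeR adjusted p = 0.00393). Spo11, which makes the DNA breaks of meiosis, had 3, 10 and 5 against 4, 4 and 9 in 8354 bases (log2 ratio 2.13, adjusted p = 0.0109). Of 18 piRNA and Tudor domain genes, Tdrd1, Tdrkh and Gtsf1 were higher (16.7%) and Tdrd9 and Tdrd12 lower (11.1%), against 5.42% and 4.98% of all transcripts. The piRNA pathway silences transposons in the germ line. Tdrd9, a helicase of that pathway, had 4, 4 and 5 crosslinks in 13136 bases of first intron and 71, 78 and 96 in 78745 bases of later introns, level in all libraries (log2 ratio -1.64, edgeR adjusted p = 0.00177). Tdrd12 had 0, 4 and 2 against 54, 97 and 79 (log2 ratio -2.33, adjusted p = 0.000336) and was the 1 among Tdrd9, Tdrd12, Tdrkh, Sycp3 and Spo11 that DESeq2 also called.

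All 26 axonemal dynein genes, which encode the motors of cilia and of the sperm tail, were tested. The median log2 ratio was -1.57 against -0.20 over all transcripts, and Dnah14 was higher (3.85%) while Dnah6, Dnah7b and Dnah17 were lower (11.5%), against 5.42% and 4.98% of all transcripts. Together they had 225 crosslinks in first introns and 6205 in later ones, or 1.44 and 1.76 per kb. The median over all transcripts includes 835 of 5220 first introns with no crosslink, whose fitted value holds only a sign. It was -0.04 where at least 5 crosslinks were expected. The median of the dyneins was not taken under that limit, and it too includes first introns with no crosslink, such as that of Dnah17. Dnah14 had 3, 15 and 11 crosslinks in 2944 bases and 172, 373 and 231 in 214526 (log2 ratio 1.42, edgeR adjusted p = 0.00154). Dnah6 had 0, 1 and 1 in 8789 bases against 72, 118 and 72 in 179571 (log2 ratio -2.66, adjusted p = 0.0111). Of 45 tested genes of cilia and flagella, Agbl4 and Akap4 were higher (4.44%) and Spag17 was lower (2.22%), no more than among all transcripts. Akap4, the main protein of the fibrous sheath of the sperm tail, had 4, 45 and 4 against 4, 16 and 2, with most from replicate 2 (log2 ratio 2.52, edgeR adjusted p = 3.18e-05), and lost the call without that library. Spag17, a protein of the central pair of the axoneme, had 15, 65 and 21 in 53593 bases against 111, 323 and 154 in 194711 (log2 ratio -0.76, adjusted p = 0.0199).

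Of 56 chromatin regulators, Kdm5b, Kmt2e, Arid4a and Ep300 were higher (7.14%) and Chd5 and Chd9 lower (3.57%), near the 5.42% and 4.98% of all transcripts. Kdm5b, a histone H3K4 demethylase, had 39, 40 and 40 crosslinks against 15, 20 and 14 in later introns, the most even across libraries of the 4 (log2 ratio 1.74, edgeR adjusted p = 9.94e-07). Ep300, a histone acetyltransferase, had 10, 19 and 19 against 16, 13 and 5 (log2 ratio 2.18, adjusted p = 1.30e-05). Arid4a had 0, 39 and 0 in its first intron against 15, 17 and 14 in later introns. All 39 came from replicate 2, so its edgeR adjusted p of 3.43e-27 stands for that library, and DESeq2 made no call. With the robust option of edgeR the adjusted p was 0.0035. Of 51 cell adhesion and synaptic scaffold genes, 14 had a first intron that met the rule and 13 were tested. Nrxn3 was the 1 called (7.69% higher, against 5.42%), with 6, 20 and 4 against 31, 49 and 26 (log2 ratio 1.45, edgeR adjusted p = 0.00636), and it was not called by DESeq2.

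Exons that the study followed as Tra2β targets lie in 11 genes, chosen by the study on related samples, so that they are not independent of the protein's binding. Besides Tra2a and Tra2b none of the 9 tested was called. The first intron of Nasp, a histone chaperone, had 8, 5 and 6 crosslinks (log2 ratio -0.34, edgeR adjusted p = 0.705), and that of Cep126 had 1, 3 and 1 (log2 ratio -1.11, adjusted p = 0.331). Rad18, a ubiquitin ligase of DNA repair, had 2, 0 and 4 in 2993 bases and 42, 40 and 54 in later introns, close to equal density at 2.00 and 2.02 per kb. Ptbp2, a splicing repressor, had 0, 2 and 0 against 40, 63 and 48, and Rpgr and Phf7 had 1 crosslink each. The first intron of Ggnbp2 had none in 186 bases, which was too little to show a difference.

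Of the 50 first introns called lower without a crosslink, the rule for naming took 8 by their fitted ratio. With no crosslink this order follows the depth of the later introns and does not rank the first introns. Pebp4, Wdr64, Ak8, Armc3, Dnah17, Lrriq1, Ccdc7a and Gm44511 had 0 in every library, and the fold is then a bound against 3 crosslinks. Gm44511 was at least 49.9-fold lower than its later introns, but Klrb1b overlaps it, and its later introns had 275, 69 and 747 crosslinks. Wdr64, a WD repeat protein, had 59, 134 and 62 crosslinks in later introns and none in 7013 bases of first intron, at least 5.63-fold lower (edgeR adjusted p = 1.30e-05). Pebp4 was at least 3.51-fold lower, and Ak8, an adenylate kinase of cilia, at least 2.13-fold. Armc3, Ccdc7a, Dnah17 and Lrriq1 were at least 2.45, 1.98, 1.61 and 1.51-fold lower. The last 4 have first introns of 1357 to 2409 nt, where between 4.48 and 7.18 crosslinks were to be expected at equal density, and of the 8 only Gm44511 and Wdr64 were called by DESeq2.

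The first introns with the most crosslinks were long, and not all were higher than the rest of their transcript. Strbp, an RNA-binding protein of spermatids, had 129, 189 and 113 in a first intron of 55906 nt (302.3 ± 69.8 CPM) against 39, 66 and 56 in 59484 bases of later introns (log2 ratio 1.52, edgeR adjusted p = 4.76e-10). Rtn1, a reticulon of the endoplasmic reticulum, had 105, 220 and 81 against 40, 84 and 42 (log2 ratio 1.17, adjusted p = 7.77e-06). Agbl4, which trims glutamate from tubulin tails, had 70, 195 and 71 against 15, 22 and 18 in a longer stretch (log2 ratio 3.16, edgeR adjusted p = 2.44e-30), the largest ratio of these 8. Zfand3, Ahcyl2 and Otud7b were higher as well, with log2 ratios of 1.34, 1.45 and 1.41.

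Stk33, a kinase needed for the sperm tail, had 83, 159 and 108 crosslinks in the first intron and 66, 166 and 75 in 60119 bases of later introns, which is 3.67 against 5.11 per kb (log2 ratio -0.42, edgeR adjusted p = 0.216). Sh3gl3, an endophilin, was lower, with 78, 118 and 67 in 83566 bases against 54, 105 and 45 in 36057 (log2 ratio -0.81, adjusted p = 0.00624), although DESeq2 made no call. The median crosslink lay 19407 nt from the first exon in Strbp, 36350 nt in Rtn1 and 28149 nt in Agbl4, and 15.5%, 2.22% and 5.06% of their crosslinks lay in the first 2 kb.

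In sequence, first and later introns were much alike. Purines made up 48.8% of first and 48.7% of later introns, and G+C 43.8 and 42.7%. AGAA occurred 6.73 and 7.04 times per kb, and GAA 17.9 and 18.1 times. Crosslinked nucleotides lay near an AGAA (within 15 nt) more often than the other bases of the same introns, by a factor of 1.10, 1.60 and 1.13 in first introns and 1.11, 1.62 and 1.14 in later introns. The classes differed by less than the libraries did, and replicate 2 was the highest in both.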

How the data were processed

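iCLIP crosslinks of Tra2β were analysed in 3 libraries of 1 group. The deposited values are whole-number counts of unique cDNAs per crosslinked nucleotide and strand, which the authors made with the iMAPS pipeline. They are not normalised and replicates were not pooled. The labels' processing notes name Trim Galore 0.6.7, Bowtie 1.3.1, STAR 2.7.9a, UMI-tools 1.1.2 and mm39. Of 49 sequence names none was missing from GRCm39. Reads placed at several sites are not traceable, so repeats and paralogues are uncertain.

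Counts were summed per intron class, transcript and library and tested with edgeR 4.0.16 (quasi-likelihood, library block, offsets for library total and unmasked length, Benjamini-Hochberg). DESeq2 1.42.0 was an alternative. On simulated counts for first against later introns (5220 transcripts), 78% of raised and 47% of lowered transcripts were recovered. The 200 changed transcripts were drawn from those with the most crosslinks expected in the first intron, so these shares do not hold for all 5220. Per-library log2 ratios had 0.5 crosslinks added. Named were the 12 highest (at least 20 crosslinks, 3 per library), the 8 lowest, the 8 with most crosslinks, 3 per gene list by p, and the study's targets. Members and lists were chosen with earlier results of these data known. The edgeR p-values with all libraries rest on a spread between the 3 biological replicates that is shared by all transcripts, not on that of each transcript. NMD exons, within-transcript ratios and introns of at least 20 kb were added after seeing the data.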

Additional observations from a re-analysis of the deposited data

How the results depend on the processing

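Depth limits single introns, since 2945 of 5220 tested transcripts had at least 5 crosslinks to be expected in the first intron, and these gave 234 of the higher and 257 of the lower calls. The pooled ratio of 0.963 stayed within the spread between libraries in its other alternatives, from 0.903 without the 50 most crosslinked introns of each class to 1.03 within transcripts, except against the second intron alone (1.13) and as a median over transcripts (0.716). Without each replicate it ranged from 0.929 to 0.996, the within-transcript ratio from 0.996 to 1.06 and the ratio of the first 2 kb over the rest from 1.46 to 1.59. The cause of each change below was not tested.

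Higher calls of first against later introns numbered 283, with 107 by DESeq2, 37 by the binomial test, 153 with length-matched introns, 176 without overlapping genes, 0 to 37 without each replicate and 21, 41 and 18 by DESeq2 without replicates 1, 2 and 3. Lower calls numbered 260, with 71, 19, 183 and 130 in that order, 0 to 24 without each replicate and 7 by DESeq2 without each. Without the replicate block (library) 274 and 252 passed, and with at least 1 crosslink 239 and 209. First against second intron, the 83 higher calls went to 0 to 7 and the 63 lower ones to 0 to 8 without each replicate. Second against later introns, 83 went to 0 to 39 and 110 to 0 to 43. In the first 2 kb, 8 higher calls became 3 with the boundary at 1 kb and 33 at 5 kb, and 0 to 5 without each replicate, and the 1 lower call became 0 at 1 kb, 2 at 5 kb and 0 without each replicate. When a library is left out 1 residual degree of freedom remains.

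The naming rule took 45 called transcripts and left out Tdrd1, Gtsf1, Kmt2e, Chd5, Chd9 and Dnah7b. Of the 45, 23 were lost with DESeq2, 33 with the binomial test, 9 with length-matched introns and 3 with TMM factors. Without replicates 1, 2 and 3, 45, 28 and 31 were lost. Stk33 and Shoc1 were called lower only with TMM factors (log2 ratios -0.68 and -3.25), which lowered the median ratio of all transcripts too. Of 895 values 8 changed sign. Arid4a went to -5.89 without replicate 2, which removed all its first-intron crosslinks, and to 7.07 without replicate 1. Ggnbp2, with no crosslink there, went to 0.056 and 0.41 by DESeq2 without replicates 2 and 3. Rad18, at -0.03, ranged from -0.87 to 0.48 without each replicate and went to 0.45 by DESeq2 without replicate 2, 0.096 by the binomial test, 0.75 with length-matched introns and 0.029 without 100 nt next to splice sites.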
